A study of Mus musculus with 48 samples.

Results

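The genes described here are the replication-dependent histone genes, which encode the H1, H2A, H2B, H3 and H4 proteins that package newly copied DNA. They were chosen by symbol: genes starting with Hist1h, Hist2h, Hist3h or Hist4h that were listed in at least 6 of the 12 libraries of total RNA. Of 70 genes with such symbols in the annotation, 56 were listed in at least 1 library and 44 met the rule, out of 17493 genes of any kind that met it. The 44 comprise 5 H1, 8 H2A, 12 H2B, 8 H3 and 11 H4 genes, and 37 of them lie on chromosome 13 of GRCm38.

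The cells were E14TG2a, a mouse embryonic stem cell line grown in 2i + LIF medium, and all groups received 1 µM flavopiridol, which blocks the kinase CDK9 and thereby the release of paused RNA polymerase II. Polyadenylated RNA was sequenced from total cell extract and from nuclear, cytosolic and membrane fractions, obtained with digitonin and then NP-40, after 30, 60, 120 and 240 min, with 3 independently passaged replicates at each time and in each fraction, 48 libraries in all. Each value is a ratio to the level at 0 min of the same fraction. A ratio of 1 is therefore the starting level, and ratios do not compare the amount of an RNA between fractions. The 0 min libraries were not analysed here.

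Replication-dependent histone mRNAs are unusual among the mRNAs of animal cells. Their genes mostly lack introns, and their mRNAs normally end just after a short stem-loop in place of a poly(A) tail. The stem-loop is bound by SLBP, the end is cut with the help of the U7 snRNP, and the mRNAs accumulate in S phase and are degraded quickly when DNA replication stops. Some of these genes also give longer RNAs that run past the stem-loop and end in a poly(A) tail. The libraries were made from polyadenylated RNA, and values per gene do not show which form of an mRNA a read came from.

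The stem-loop letters are shown first, because their place in the annotated transcript says how far the annotation extends past the usual end. A search for GGNNCTTNTNAGNGCC on the sense strand found them in 28 of the 44 genes and in 34 of 21857 other protein-coding genes (0.156%), of which 16 have symbols of the same histone pattern. In the lines below the stem-loop is in capitals with 7 bases on each side, taken from GENCODE transcripts of GRCm38. The first 5 genes are among those with the most reads and the last 4 are genes whose slopes passed a test in total RNA or carry another form of the loop.

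Hist1h1c: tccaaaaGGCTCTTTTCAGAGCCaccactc
Hist1h4i: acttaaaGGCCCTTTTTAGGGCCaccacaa
Hist3h2a: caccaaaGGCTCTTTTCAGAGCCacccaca
Hist1h4d: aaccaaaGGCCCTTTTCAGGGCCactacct
Hist1h3c: aaaaaaaGGCTCTTTTAAGAGCCacctaag
Hist1h2ae: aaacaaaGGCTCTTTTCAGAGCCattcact
Hist1h3e: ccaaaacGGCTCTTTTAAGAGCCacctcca
Hist1h4h: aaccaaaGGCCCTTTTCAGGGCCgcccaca
Hist1h4a: aaccaaaGGCCCTTCTCAGGGCCgcccaca

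The 16 bases occurred in 6 versions. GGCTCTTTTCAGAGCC was found in 14 genes, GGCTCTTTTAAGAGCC in 5 and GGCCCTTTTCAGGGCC in 5. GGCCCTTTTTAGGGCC was found in 2 genes, Hist1h4i and Hist2h4, while Hist1h4a and Hist1h3g each had a version of their own. The paired bases around the loop open with GGCC in all H4 genes that had a match and with GGCT in all matched genes of the other families.

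For each gene a single annotated transcript was used as its model. A transcript with the letters was preferred, and among equals the longest, so other transcripts of a gene are not described. This transcript ended within 100 bases of the stem-loop in 12 genes and ran further in 16. In the longer class 7 genes had the polyadenylation signal AATAAA in their last 40 bases, in the shorter class 0. The largest distances belonged to Hist1h1d, with 4884 bases after the stem-loop, Hist4h4 with 2445 and Hist3h2a with 1643. Of the 16 genes with no match, 9 have a model that consists of coding bases only and so holds no 3′ end to search. The other genes with no match include Hist1h2bc (chr13:23684199-23692908, plus strand), the only one of the 44 whose model has 2 exons, and Hist2h2be (chr3:96221119-96223738, plus strand), a model of 2620 bases with AATAAA near its end.

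The number of reads behind the ratios was small for most of these genes. Quotients of ratios between libraries of a fraction were quotients of whole numbers, so the smallest read numbers that fit could be inferred, for 98.1% of genes in total RNA within 0.02 reads and for all 44 histone genes. These are lower bounds, since a factor common to all libraries cannot be seen. The median histone gene had 3.75 reads per total library, and 8 of 44 (18.2%) had 10 or more. The median over all genes was 18.5 reads, and 57.1% had 10 or more. Nuclear libraries had a median of 3 reads, cytosolic ones 4 and membrane ones 3.

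A pair of genes stood above the rest. Hist1h2bc, an H2B gene, had a median of 69.5 reads per total library and Hist1h1c, a gene for linker histone H1, had 62. Hist1h4i followed with 28.5, Hist3h2a with 21.5, Hist1h4d with 16.5, Hist1h3c with 15, Hist1h2bk with 14.5 and Hist1h1a with 12.5. Genes with over 100 annotated bases after the stem-loop had a median of 5 reads, against 3 in those with up to 100 bases and 3 in those without a match, and the ranges overlapped (1 to 62, 1 to 15 and 0.5 to 69.5). Read number is not a measure of expression here, since Gapdh, a gene used at high level by most cells, had between 0 and 4 reads per total library and Actb was unlisted in all of them.

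Near-identical copies limit how well the histone genes can be separated. The share of 75-base windows of a transcript that occur in no other annotated gene had a median of 55.8%, was under 50% in 18 genes and was lowest in Hist1h3h at 6.53%. It was 72.9% for Hist1h2bc, 93.3% for Hist1h1c and 27.4% for Hist1h2bk. Values of genes with low shares are uncertain, as they do not show whether reads shared with a sister gene were assigned or left out. In addition, 3 genes overlap another gene on the same strand and 10 on the other strand.

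**Figure D1:**
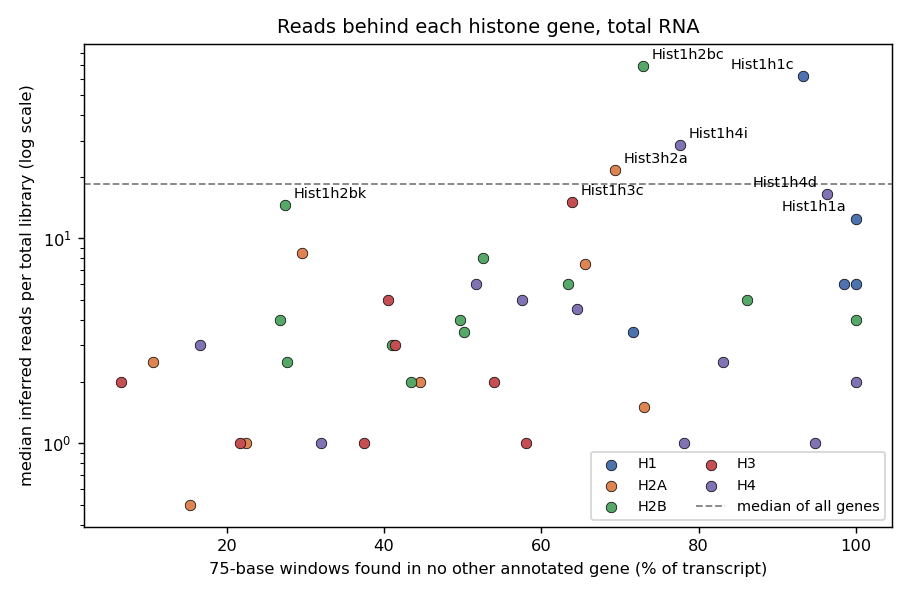
Each point is 1 of the 44 histone genes, coloured by family, with the share of 75-base windows unique to the gene (x, %) against its median inferred reads per total library (y, log scale), and the dashed line is the median of all genes. Above that line lie 4 of the 44, Hist1h2bc, Hist1h1c, Hist1h4i and Hist3h2a, and each of them has at least 69.4% unique windows.

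As low reads make single genes noisy, the reads of all histone genes were also summed in each library and set against their summed 0 min level, a summary chosen after the data had been seen. The sums cover the genes listed in at least 2 libraries of a fraction, which were 44 in total RNA, 41 in nuclear, 42 in cytosolic and 43 in membrane RNA. In total RNA the summed ratio was 0.722, 0.607 and 0.674 at 30 min and 0.697, 0.678 and 0.818 at 60 min. It was 0.624, 0.551 and 0.467 at 120 min and 0.595, 0.745 and 0.759 at 240 min. The level thus lay below the start in all 12 libraries, and the libraries of 240 min overlapped those of 30 min and of 120 min. In such bulk samples less of an RNA per cell and fewer cells that hold it cannot be told apart.

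The nucleus followed another course. Its summed ratio was 0.561, 0.891 and 0.888 at 30 min and 0.372, 0.362 and 0.327 at 240 min, with means of 0.535 ± 0.071 (SD, n = 3) at 60 min and 0.455 ± 0.043 at 120 min. The nuclear values of 240 min lay below all nuclear values of the earlier times. The nuclear 30 min library of replicate 1 stands apart over all genes as well, with a median ratio of 0.555 against 0.934 and 0.805 in replicates 2 and 3.

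In the cytosol the summed ratio was close to the start at 30 min, with 1.061, 0.904 and 1.048, and reached 0.620, 0.628 and 0.531 at 240 min. The membrane fraction went from 1.094, 0.628 and 0.724 at 30 min to 0.533, 0.521 and 0.401 at 240 min. In both fractions the 3 libraries of 240 min lay below the 3 of 30 min.

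Relative to their own 0 min levels, the total libraries of 240 min (0.595 to 0.759) did not overlap those of the nucleus or of the membrane fraction and overlapped those of the cytosol. Over the 39 genes summed in all 4 fractions the means at 240 min were 0.696 in total RNA and 0.355, 0.592 and 0.488 in nuclear, cytosolic and membrane RNA. The 4 fractions were scaled and divided separately, so such a gap also holds any error of each 0 min divisor, which all 3 replicates of a fraction share. The paper assumes that whole-cell RNA can be approximated by a weighted sum of the 3 fractions. On a common scale the total ratio would then lie within their range, but 0.696 lay above it. The cause was not tested. The library medians over all genes at 240 min were 0.472 ± 0.020 in total RNA, and the nuclear, cytosolic and membrane ones were 0.336 ± 0.022, 0.484 ± 0.008 and 0.469 ± 0.034. At 240 min the histone sum was thus above the median gene in each of the 3 total libraries and each of the 3 cytosolic ones. It was close to the median gene in the nucleus, at 0.354 ± 0.023, and in the membrane fraction, at 0.485 ± 0.073. The measures differ, as the sum weights genes by reads and counts unlisted genes as 0. Over genes listed in all 3 libraries of 240 min, the median log2 ratio of histone genes was -1.07 in the nucleus, against -1.48 for all genes. In the membrane fraction it was -1.22 against -1.05, in the cytosol -0.926 against -1.01 and in total RNA -0.425 against -1.03. Without the 3 deepest genes the nuclear sum was 0.417 ± 0.029. In total RNA at 30 min the sum lay below the median gene, at 0.668 ± 0.058 against 0.843 ± 0.045.

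**Figure D2:**
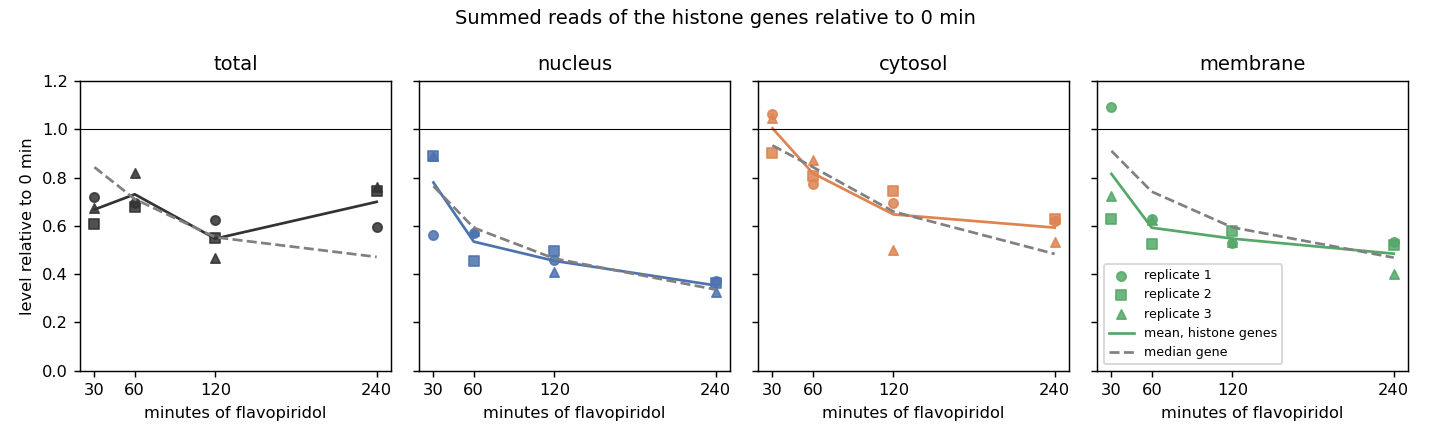
Summed reads of the histone genes relative to 0 min (y, ratio) against minutes of flavopiridol (x) in each fraction, with circles, squares and triangles for replicates 1, 2 and 3, solid lines for their means and dashed lines for the mean of the library medians over all genes. The total values end at 0.700 ± 0.091, the nuclear values at 0.354 ± 0.023.

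By family, the summed ratio in total RNA at 240 min was 0.738 ± 0.122 for H1, 0.734 ± 0.094 for H2A, 0.568 ± 0.064 for H2B, 0.890 ± 0.248 for H3 and 0.801 ± 0.069 for H4. In the nucleus at 240 min it was 0.624 ± 0.028 for H1, 0.411 ± 0.139 for H2A, 0.263 ± 0.038 for H2B, 0.266 ± 0.031 for H3 and 0.409 ± 0.069 for H4. Nuclear H1 lay above each other family in every library of that time. These sums lean on the deepest genes: over the 12 libraries Hist1h1c gave 67.2% of the H1 reads in total RNA and 56.5% in the nucleus, and Hist1h2bc gave 55.4% and 63.2% of the H2B reads. The nuclear sums cover 4 of the 5 H1 and 6 of the 8 H2A genes. H1 is the linker histone that binds DNA between nucleosomes, and the other families form the nucleosome core.

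For single genes, the ratios of the 3 replicates at one time spread widely. The highest replicate was 2.12 times the lowest in the median histone gene of total RNA, against 1.41 times over all genes, and the corresponding values were 2.23 and 1.53 in nuclear, 2.38 and 1.35 in cytosolic and 2.24 and 1.38 in membrane libraries. Counts against the 0 min level are therefore descriptions without a test. In total RNA at 30 min, 29 genes were listed in all 3 libraries. Of these, 19 lay below 1 in all 3 and 0 lay above, where 54.9% and 5.11% of all genes did. At 60 min 11 of 31 lay below and 2 above, where 72.3% and 3.81% of all genes did, and at 120 min 24 of 33 lay below and 1 above, where 80.8% and 2.92% did. At 240 min 14 of 38 lay below and 4 above, where 77.3% and 7.94% of all genes did. The shares were not tested against each other.

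For the nucleus, 5 of 28 genes lay below 1 in all 3 replicates at 30 min and 6 above (all genes 48.5% and 7.73%), and 22 of 28 lay below and 2 above at 240 min (all genes 80.1% and 9.02%). For the cytosol, 4 of 34 lay below and 8 above at 30 min (all genes 37.1% and 14.2%), and 20 of 29 lay below and 1 above at 240 min (all genes 77.8% and 6.82%). For the membrane fraction, 11 of 35 lay below and 3 above at 30 min (all genes 42.2% and 14.3%), and 24 of 29 lay below and 1 above at 240 min (all genes 75.4% and 8.95%). In each of these 3 fractions a minority of the listed histone genes lay below the start in all replicates at 30 min and a majority at 240 min. The same was true over all genes, so this course is not particular to the histone genes.

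The genes at the ends of the range at 240 min differed by fraction. In total RNA Hist1h2ae was highest, with ratios of 1.90, 3.55 and 3.25, and Hist2h2be lowest, with 0.113, 0.0594 and 0.185. In the nucleus Hist1h1d was highest, with 2.11, 2.13 and 2.08, and Hist2h2be again lowest, with 0.0835, 0.206 and 0.0914. In the cytosol the ends were Hist1h2ae, with 1.05, 2.79 and 1.92, and Hist1h4a, with 0.123, 0.584 and 0.125. In the membrane fraction they were Hist1h4i, with 1.29, 1.58 and 1.01, and Hist1h2af, with 0.511, 0.0647 and 0.0724. Hist1h4i was above 1 in all 12 membrane libraries except 1 of 30 min, at 0.860. The 0 min divisor of Hist1h2ae was 4.37 scaled inferred reads in total RNA and 3.61 in the cytosol. It was 1.82 for Hist1h1d in the nucleus and 20.9 for Hist1h4i in the membrane fraction. All 3 replicates share that divisor, so an error in it moves them together.

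Change over time was tested in limma as a slope, the change of the log2 ratio per hour. Genes present in each of a fraction's 12 libraries were tested, with Benjamini-Hochberg adjustment over all of them. In this test the 0 min divisor cancels. Testable members of the 44 numbered 24 in total RNA and 16, 23 and 21 in nuclear, cytosolic and membrane RNA, and 16 were testable nowhere. A gene that vanished from a library was not tested, so these counts do not stand for all 44.

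In total RNA 3 of the 24 tested genes rose and 2 fell, where 3.39% and 56.9% of 12762 tested genes did. The median slope of the 24 was 0.03 per hour on the log2 scale and that of all genes was -0.22. By sign alone 16 of the 24 slopes were above 0. All 5 H1 genes had slopes between 0.01 and 0.13, and none of them passed the test. Other library scalings moved all slopes together. The median slope of all genes was 0.01 with libraries centred on the median gene and -0.33 when libraries were scaled on mitochondrially encoded mRNAs. With the first, 23 of 24 slopes were above 0 and 9 rose, and with the second 9 of 24 were above 0 and 0 rose. Of all 12762 genes, 3672 rose and 3961 fell with the first, and 134 rose and 8935 fell with the second. The number that rose therefore depends on the scaling.

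Hist1h2ae, an H2A gene on the minus strand at chr13:23570517-23571220, had 151 annotated bases after its stem-loop and a median of 7.5 reads. Its ratios in total RNA were 1.74, 0.915 and 0.821 at 30 min, 1.42, 1.35 and 1.49 at 60 min, 1.22, 1.49 and 0.919 at 120 min and 1.90, 3.55 and 3.25 at 240 min. All 3 libraries of 240 min lay above all earlier ones. The slope was 0.36 ± 0.09 (SE), with a limma adjusted p of 0.0056. The rise rested on the last time: with 30 to 120 min alone the slope was 0.03 and the adjusted p 0.914. Without replicate 2 the adjusted p was 0.107 and without replicate 3 it was 0.0543. For Hist1h2ae the nuclear slope was 0.41 ± 0.20, the cytosolic one -0.10 ± 0.18 and the membrane one -0.12 ± 0.16. None of them passed (limma adjusted p = 0.081, 0.628 and 0.525).

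Hist1h3e, an H3 gene, had ratios of 1.56, 0.691 and 0.620 at 30 min and 0.614, 0.195 and 0.214 at 60 min. At 120 min they were 0.920, 0.936 and 0.925 and at 240 min 1.09, 1.86 and 1.78. The libraries of 240 min overlapped those of 30 min, which held the first replicate at 1.56. The slope was 0.43 ± 0.18 (limma adjusted p = 0.049) from a median of 5 reads. Without replicate 2 the adjusted p was 0.221 and without replicate 3 it was 0.248. Outside total RNA the slope of Hist1h3e was below 0, at -0.42 ± 0.21 for nuclear libraries and -0.33 ± 0.14 for cytosolic ones. Neither passed (limma adjusted p = 0.095 and 0.053), and the gene was not tested in the membrane fraction.

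Hist1h4h, an H4 gene, had ratios of 0.230, 0.545 and 0.489 at 30 min and 0.363, 1.04 and 0.761 at 60 min. They were 0.635, 0.443 and 0.328 at 120 min and 1.45, 0.762 and 0.967 at 240 min, where 2 of 3 were under the starting level. The slope was 0.32 ± 0.13 (limma adjusted p = 0.047), again from a median of 5 reads. Without replicate 1 the slope was 0.11 and the adjusted p 0.525, and without replicate 3 the adjusted p was 0.0816. The cytosolic slope of Hist1h4h was -0.39 ± 0.24 and its membrane slope -0.18 ± 0.19. Neither passed (limma adjusted p = 0.158 and 0.428), and the gene was not tested in the nucleus. The 3 genes that rose thus had between 5 and 7.5 reads, and each lost its call without at least 1 of the replicates.

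Hist2h2be, an H2B gene, fell most. Its ratios in total RNA were 0.566, 0.382 and 0.514 at 30 min, 0.170, 0.485 and 0.534 at 60 min, 0.254, 0.544 and 0.230 at 120 min and 0.113, 0.0594 and 0.185 at 240 min. The last values come from 1 to 3 reads per library. The slope was -0.59 ± 0.14 (limma adjusted p = 0.0020), and it passed with each replicate left out in turn and with either other scaling. With 30 to 120 min alone the slope was -0.37 and the adjusted p 0.352.

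Hist1h2bc was the best covered gene. Its ratios in total RNA were 0.671, 0.707 and 0.925 at 30 min, 0.670, 0.558 and 0.560 at 60 min, 0.420, 0.474 and 0.453 at 120 min and 0.380, 0.546 and 0.431 at 240 min. The level fell up to 120 min and did not differ between 120 and 240 min beyond the replicate spread. The slope was -0.20 ± 0.06 (limma adjusted p = 0.0098), close to the median of all genes, and centred on the median gene it was 0.03. Without replicate 1 the adjusted p was 0.0888 and without replicate 3 it was 0.0746.

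**Figure D3:**
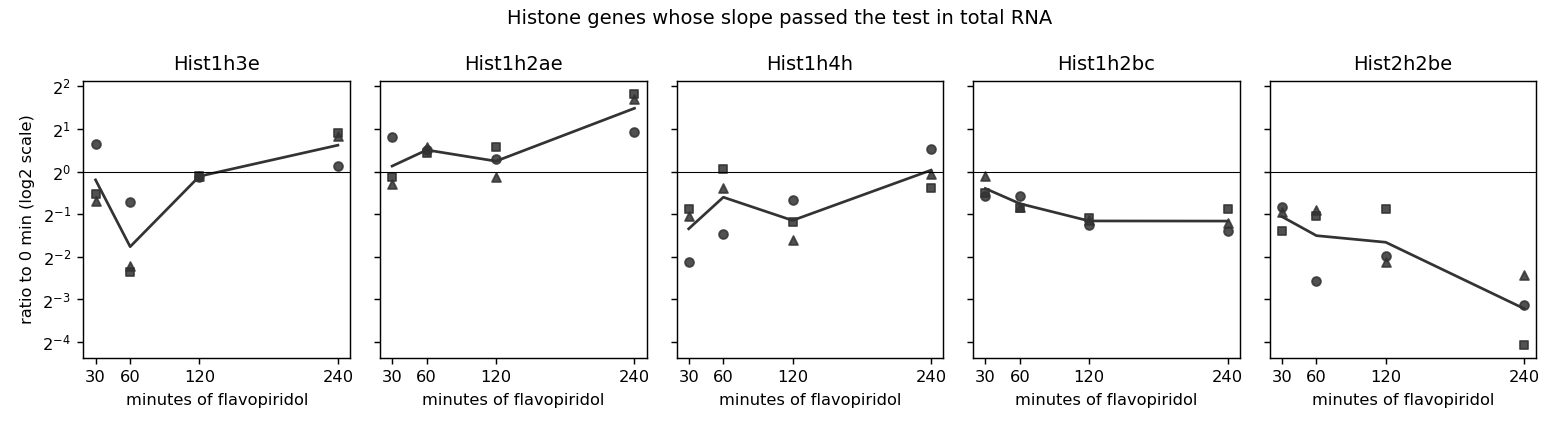
Ratios to 0 min in total RNA (y, log2 scale) against minutes of flavopiridol (x) for the 5 histone genes whose slope passed the test, with circles, squares and triangles for replicates 1, 2 and 3 and lines for their geometric means. Hist1h2ae ends above all its earlier values, and Hist2h2be ends between 0.0594 and 0.185.

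Among the deepest genes, Hist1h1c did not pass the test in total RNA. Its ratios were 0.534, 0.631 and 0.772 at 30 min and 0.655, 0.802 and 0.814 at 240 min, with a mean of 0.528 ± 0.037 at 120 min, so the lowest level was at 120 min. Hist1h4i likewise had 0.735, 0.527 and 0.640 at 30 min and 0.957, 1.29 and 0.740 at 240 min. Hist1h2af was erratic, with 4.73 in the first replicate at 120 min and 0.481 and 0.357 in the other two, from 48, 4 and 3 reads.

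In the nucleus 7 of 16 tested genes fell and 0 rose, where 61.9% and 3.32% of 13343 genes did. At an unadjusted p under 0.05, 8 of the 16 passed, as did 68.2% of all genes. The median slope was -0.33 against -0.30 for all genes. The genes that fell were Hist1h2bc, Hist1h3c, Hist1h2bk, Hist2h2be, Hist1h4d, Hist3h2a and Hist1h1c, with slopes from -0.56 to -0.12. Without the 30 min library of replicate 1, 8 fell, the added gene being Hist1h3e at -0.60 (limma adjusted p = 0.0028). Centred on the median gene, 2 fell and 3 rose, Hist1h1c then had a slope of 0.20 and Hist3h2a one of 0.01. Of all 13343 genes, 3897 fell and 3954 rose with that scaling. Scaled on mitochondrially encoded mRNAs, 0 fell and 1 rose, and Hist1h1c had a slope of 0.08. With that scaling 2926 of all genes fell and 625 rose.

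Hist1h2bc in the nucleus had ratios of 0.665, 1.04 and 0.791 at 30 min, 0.567, 0.453 and 0.585 at 60 min, 0.303, 0.250 and 0.284 at 120 min and 0.232, 0.232 and 0.141 at 240 min. No library of a later time reached the values of the time before it. The slope was -0.56 ± 0.08 (limma adjusted p = 7.0e-05). Hist1h1c, at 0.533, 0.649 and 0.777 at 30 min and 0.455, 0.477 and 0.456 at 240 min, fell least, with a slope of -0.12 ± 0.05 (limma adjusted p = 0.044).

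In the cytosol 8 of 23 tested genes fell and 0 rose, where 67.1% and 2.95% of 11979 genes did, and 9 passed at an unadjusted p under 0.05 (all genes 72.1%). The median slope was -0.17 against -0.28. Hist1h4b had the steepest slope, -0.79 ± 0.15 (limma adjusted p = 3.7e-04), with ratios of 3.38, 2.63 and 1.90 at 30 min and 0.443, 0.211 and 0.450 at 240 min from a median of 6 reads. It thus began above its 0 min level and ended below it. That level was a small divisor, 3.42 scaled inferred reads, which all 3 replicates share. The other genes that fell were Hist1h2bl, Hist1h2bk, Hist1h1e, Hist1h2bj, Hist1h2bc, Hist3h2a and Hist1h1c, with slopes from -0.55 to -0.15. Centred on the median gene, 1 fell and 6 rose, and the slopes of Hist1h2bc, Hist3h2a and Hist1h1c turned positive. Of all 11979 genes, 3887 fell and 3520 rose with that scaling. Scaled on mitochondrially encoded mRNAs, 1 fell, where 3539 of all genes did. Leaving out a replicate left between 3 and 7 genes that fell.

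In the membrane fraction 6 of 21 tested genes fell and 0 rose, where 62.2% and 4.09% of 12408 genes did, and 8 passed at an unadjusted p under 0.05 (all genes 68.9%). The median slope was -0.19 against -0.26. Hist1h2af fell most, at -0.68 ± 0.18 (limma adjusted p = 0.0043), from 1.21, 0.796 and 0.685 at 30 min to 0.511, 0.0647 and 0.0724 at 240 min. Hist1h4a, Hist1h2bk, Hist1h2bg, Hist1h2bc and Hist3h2a also fell. Centred on the median gene, 0 fell and 2 rose, with Hist1h2bc and Hist3h2a turned positive, and scaled on mitochondrially encoded mRNAs, 11 fell. Of all 12408 genes, 3837 fell and 3513 rose with the first scaling, and 9343 fell with the second. Leaving out a replicate left between 2 and 5 that fell.

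Over the 4 fractions, 28 genes were tested at least once. Of these, 14 fell in at least 1 fraction, 3 rose in at least 1 and 0 did both, where 73.7% and 7.21% of 14737 genes tested at least once fell or rose in at least 1 fraction. The 3 rose in total RNA only. Where tested in the separated fractions, their slopes were below 0, except that of Hist1h2ae in the nucleus. Hist1h2bc fell in all 4 fractions. Hist1h2bk and Hist3h2a fell in the 3 separated fractions, and Hist1h1c and Hist2h2be fell in 2. The SE of a slope set how small a change could be seen: in total RNA its median was 0.09 for the 8 tested genes with 10 or more reads and 0.17 for the 16 with fewer.

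**Figure D4:**
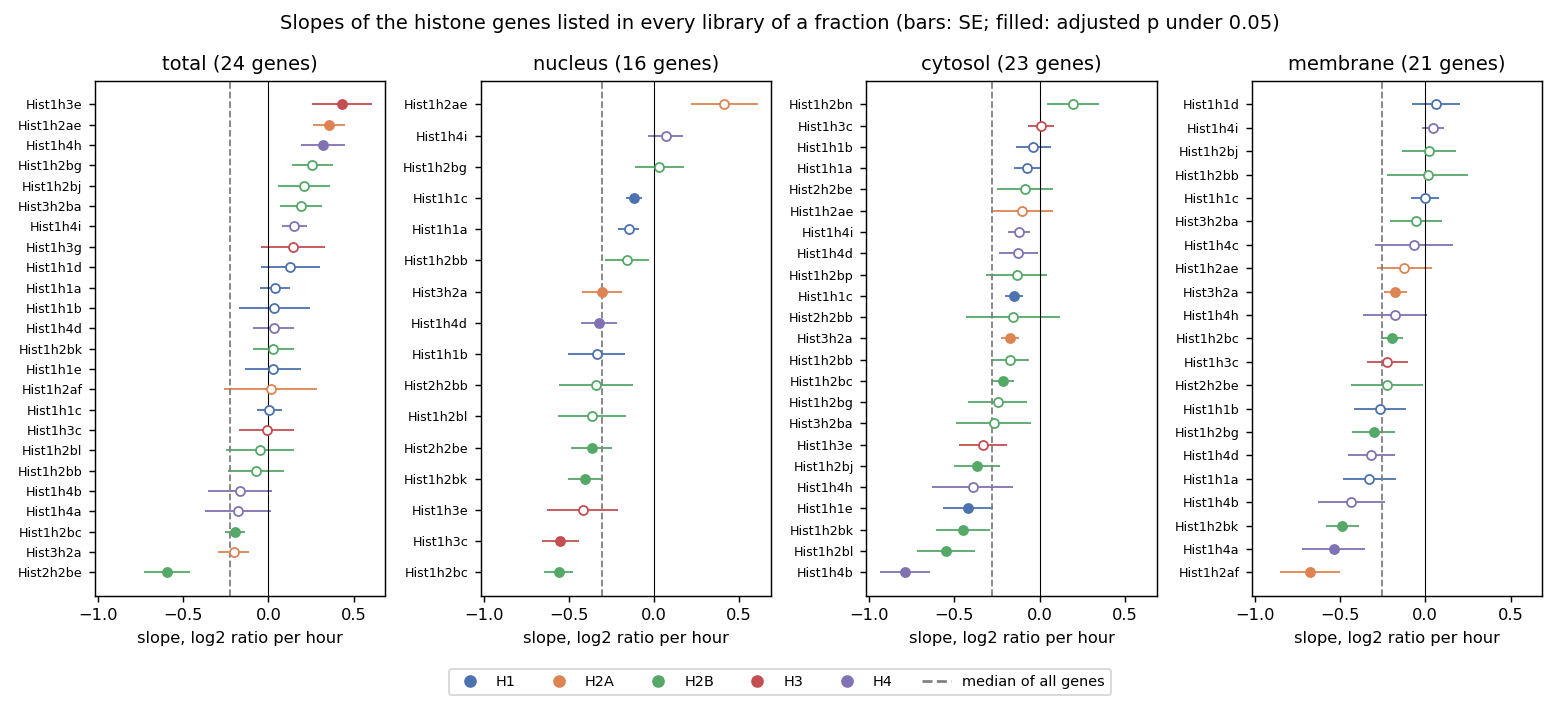
Slopes (x, log2 per hour) with their SE for the tested histone genes, ordered within each panel and coloured by family. Filled points passed an adjusted p of 0.05 and the dashed line is the median of all genes. In total RNA that median is -0.22 and most points lie to its right, whereas in the nucleus it is -0.30 and points lie on both sides.

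The difference in slope between fractions was then tested directly, with time by fraction as an interaction in limma over 24 libraries. Between nucleus and cytosol 2 of 16 tested genes had a lower slope in the nucleus and 0 a higher one, where 8.3% and 12.3% of 11232 genes did. The median difference was -0.08 for the 16 genes and 0.03 for all genes. Both genes, Hist1h3c and Hist1h2bc, are among the 8 with 10 or more reads per total library.

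Hist1h3c, an H3 gene at chr13:23744973-23745602 on the minus strand, had nuclear ratios of 0.449, 1.12 and 0.772 at 30 min, 0.566, 0.322 and 0.449 at 60 min, 0.239, 0.553 and 0.251 at 120 min and 0.198, 0.202 and 0.124 at 240 min. In the cytosol it had 1.44, 1.49 and 0.808 at 30 min and 1.13, 1.24 and 0.977 at 240 min, with means of 0.998 ± 0.290 at 60 min and 1.36 ± 0.11 at 120 min. The nuclear libraries thus ended below all those of 30 and 60 min, and the cytosolic ones did not. The difference in slope was -0.56 ± 0.13 (limma adjusted p = 0.0056) and it was -0.59 without the nuclear library that stood apart. Without replicate 3 it was -0.46, with an adjusted p of 0.143.

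For Hist1h2bc the cytosolic ratios were 1.06, 0.849 and 0.896 at 30 min and 0.545, 0.625 and 0.415 at 240 min, where each was above each nuclear value. The difference in slope was -0.34 ± 0.11 (limma adjusted p = 0.027), and it was -0.34 without the nuclear library that stood apart. Leaving out a replicate gave adjusted p-values of 0.0675, 0.133 and 0.187 for replicates 1, 2 and 3, with differences between -0.42 and -0.29.

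**Figure D5:**
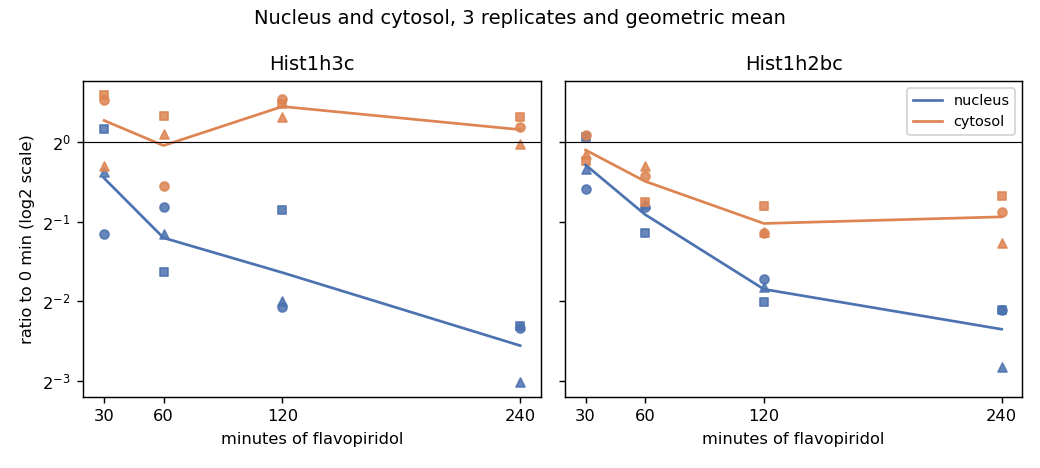
Ratios to 0 min (y, log2 scale) of Hist1h3c and Hist1h2bc in the nucleus (blue) and the cytosol (orange) against minutes of flavopiridol (x), with circles, squares and triangles for replicates 1, 2 and 3 and lines for the geometric means. At 240 min all 3 cytosolic values of each gene lie above all 3 nuclear ones.

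Between the membrane fraction and the cytosol 0 of 17 tested genes differed, by the adjusted limma p or at an unadjusted p under 0.05, where 4.94% of 11086 genes had a higher and 1.76% a lower slope and 19.4% had an unadjusted p under 0.05. The gap between total RNA and the fractions was tested in the same way after the data had been seen. In total RNA minus cytosol 0 of 20 genes passed, where 4.38% of all genes were higher and 0.922% lower, and 9 had an unadjusted p under 0.05, as did 21.6% of all genes. The median difference was 0.36 for the 20 genes against 0.06 for all genes, and 17 of the 20 were above 0.

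In total RNA minus nucleus 0 of 15 passed (all genes 3.06% higher, 0.307% lower) and 5 had an unadjusted p under 0.05 (all genes 18%), with a median of 0.23 against 0.04. In total RNA minus membrane 0 of 20 passed and 4 had an unadjusted p under 0.05 (all genes 8.62%), with a median of 0.26 against 0.03, and there 0 of 11752 genes of any kind passed. Total extract and fractions of 1 replicate and time came from the same harvest, and with the harvest as a block a gene passed in each of 2 comparisons. Hist1h2bc had a higher slope in total RNA than in the nucleus by 0.36 ± 0.07 (limma adjusted p = 0.0133, and 0.0503 without the block). Hist1h2bj, an H2B gene, had a higher slope in total RNA than in the cytosol by 0.58 ± 0.15 (limma adjusted p = 0.0368, and 0.112 without the block). In the other comparisons between fractions the block changed no call.

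Genes of related function were taken from lists for comparison. The genes listed as replication-independent histones had a median of 140 reads per total library. Most of them are expressed also outside S phase and give polyadenylated mRNAs. Of 10 tested in total RNA, 3 fell and 0 rose, where 56.9% and 3.39% of all genes did, with a median slope of -0.07. H2afj, H1f0 and Cenpa fell, at -0.36 ± 0.06, -0.32 ± 0.05 and -0.21 ± 0.04. Centred on the median gene, 1 fell and 5 rose, where 3961 and 3672 of 12762 genes did. The nucleus had 5 of 10 that fell, the cytosol 7 of 10 and the membrane fraction 7 of 10, with 1 that rose. Of all genes 61.9%, 67.1% and 62.2% fell in these fractions, and 4.09% rose in the membrane fraction.

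Of 17 tested genes for the 3′ end processing, transcription and decay of histone mRNAs, 11 fell in total RNA and 0 rose. Over all genes 56.9% fell and 3.39% rose. The median slope of the 17 was -0.34. Centred on the median gene 8 fell and 3 rose, where 3961 and 3672 of 12762 genes did. Npat, which activates histone gene transcription at the start of S phase, fell at -0.95 ± 0.05 (limma adjusted p = 2.2e-08). Eri1, an exonuclease that trims the histone mRNA end, fell at -0.78 ± 0.05, and Pcf11, a factor of polyadenylation and termination, at -0.75 ± 0.13. Lsm1, Lsm11 and Tut7 fell as well, at -0.52, -0.50 and -0.43. Slbp, the stem-loop binding protein, had a slope of -0.24 ± 0.12 that did not pass in total RNA (limma adjusted p = 0.106) and fell in the cytosol at -0.37 ± 0.12 (limma adjusted p = 0.018).

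Markers of the labelled cell type were looked up, but being listed gives no level, so this cannot test the label. Of 9 pluripotency markers looked up, 8 were listed in all 12 total libraries, including Pou5f1, Sox2 and Nanog. Of 10 symbols for markers of differentiated lineages, with T also under its newer name Tbxt, 7 matched a gene. Of these, 3 were listed in all 12 total libraries, T, Sox1 and Eomes. Libraries listed between 15067 and 19501 genes.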

How the data were processed

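Reads had been aligned by the authors with STAR 2.7.6 and counted with RSEM 1.3.3 (build mm10). They scaled libraries on genes with half-lives over 14 h and divided each series by 0 min. The deposited values are therefore ratios, with 1 per listed gene and library and no gene listed at 0. The kit keeps strand. Titles give 240 min as the last time, which was used, and the protocol text another. The depth is not stated, and inferred reads (lower bounds) served to describe it and to form the summed ratios, which carry no test. The members, lists and tests were chosen with earlier results of these data known.

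Slopes were fitted on log2 ratios without pseudocount with limma 3.58.1 in R 4.3.3 (trend, two-sided), over genes listed in all 12 libraries (both fractions for differences). The method was tested on simulated data. Named genes were those past the adjusted p of 0.05 and the ends of the range at 240 min. From the lists, up to 6 per list past that threshold in total RNA were to be named, besides Slbp, Npat and Casp8ap2. Casp8ap2 was not among the list genes matched in the data. For the marker lists, only whether a gene was listed was looked up. Genes named for their read number, and Hist1h2af in total RNA, were chosen after their values were seen. The design foresaw a replicate block as an alternative, and between fractions a harvest block (replicate and time), since per the methods a total extract and its fractions came from the same cells. Deviations of libraries of 1 harvest correlated with r between -0.0945 and 0.213. P-values rest on the scatter of libraries around a straight line in time, moderated over genes. That scatter holds the spread between the 3 independently passaged replicates and any departure from a straight line.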

Additional observations from a re-analysis of the deposited data

Results flagged for a closer look

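Of 16 tested histone genes, 2 had slopes that differed between nucleus and cytosol by the test of the difference itself. Both were lower in the nucleus. Over all 11232 genes, 8.3% were lower and 12.3% higher. Neither histone gene passed without replicate 3, on mt-encoded scaling or with 30 to 120 min alone. For Hist1h3c the slope of the nucleus minus that of the cytosol was -0.56 per hour on the log2 scale, and for Hist1h2bc it was -0.34. Without the nuclear 30 min library that stood apart the differences were -0.59 and -0.34.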

How the results depend on the processing

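In total RNA the number of histone genes that rose (3 as reported) was 1 with genes listed in at least 9 of 12 libraries, 1 with 30, 60 and 120 min only, 1 without the trend, 9 centred on the median gene and 0 scaled on mt-encoded mRNAs, and between 1 and 3 with a replicate left out. The number that fell (2) was 1 centred on the median gene and 1 with 30 to 120 min, and between 1 and 2 with a replicate left out. In the nucleus the number that fell (7) was 2 centred on the median gene, 0 on mt-encoded scaling and 2 with 30 to 120 min, and between 3 and 8 with a replicate or the single library left out, while 3 and 1 rose with these scalings. In the cytosol the number that fell (8) was 13 with genes listed in at least 9 of 12 and 13 in at least 6 of 12, 1 centred on the median gene, 1 on mt-encoded scaling and 3 with 30 to 120 min, and between 3 and 7 with a replicate left out, while 6 rose centred on the median gene. In the membrane fraction the number that fell (6) was 0 centred on the median gene, with 2 that rose, 11 on mt-encoded scaling and 2 with 30 to 120 min, and between 2 and 5 with a replicate left out. Counts over all genes with the 2 other scalings stand with each fraction above.

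The median slope of the histone genes minus that of all genes was 0.253 in total RNA, and 0.211 with a pseudocount of 0.1, 0.217 with 30 to 120 min and between 0.234 and 0.337 with a replicate left out. In the nucleus it was -0.0255, and 0.100 with 30 to 120 min and between 0.0026 and 0.0945 with a replicate or library left out. In the cytosol it was 0.105, and 0.0487 with genes listed in at least 9 of 12 and -0.144 with 30 to 120 min. In the membrane fraction it was 0.0626, and -0.0645 with 30 to 120 min. The slope of Hist1h2bc in total RNA was 0.033 centred on the median gene. Nucleus minus cytosol gave 2 lower genes, and 1 with the pseudocount, 0 on mt-encoded scaling, 0 with 30 to 120 min and between 0 and 2 with a replicate left out. Membrane minus cytosol gave 2 lower on mt-encoded scaling. Total minus nucleus gave 0 higher genes, and 1 with genes listed in at least 6 of 12, 1 centred on the median gene, 1 without the trend, 1 with the harvest block and between 0 and 2 with a replicate or library left out. Total minus cytosol gave 1 higher with the harvest block, 1 lower on mt-encoded scaling and between 0 and 1 higher with a replicate left out. The cause was not tested for any of these. Without the 3 deepest genes the summed nuclear ratio at 240 min was 0.417.

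Within a fraction, deviations of libraries of different times with the same replicate number correlated with r between -0.0598 and 0.194. Libraries of 1 harvest, which share their cells, gave a like range, -0.0945 to 0.213. The correlations therefore cannot tell whether replicate numbers pair libraries across times. With the replicate block 1 gene rose and 2 fell in total RNA, and 6, 9 and 5 genes fell in the nucleus, cytosol and membrane fraction.

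Reads per gene limit all of this: most of the 44 genes have under 10 per library, and copies share sequence. The scaling of libraries moves the direction of slow changes.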
